A study of Mus musculus with 6 samples.

Results

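Glycolysis, the breakdown of glucose to pyruvate and lactate, and the response to low oxygen were followed through 36 genes in intestinal tumour cells with and without an intact Chuk gene, which encodes the kinase IKKa. The genes were chosen by symbol: 19 encode glycolytic enzymes or kinases that regulate the pathway, and 17 encode subunits, regulators or responsive genes of the hypoxia-inducible factors (HIF). All 36 symbols matched 1 identifier each among the 49585 in the count tables, and 35 passed the filter on low counts. The exception was Adm, which encodes the vasodilator peptide adrenomedullin, with 0.112 to 0.379 CPM (the count of a gene scaled to the size of its library) in knock-out cultures and 0.194 to 0.557 CPM in the wild type.

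RNA came from tumoroids, cultures of adenoma cells embedded in Matrigel, with 3 knock-out and 3 wild-type libraries of C57BL/6 background. Knock-out cultures were IKKa FL/FL, with both Chuk copies floxed, and wild-type cultures were IKKa +/+. All were also APC min/+ and Villin-Cre. Both groups thus carried the Min allele of Apc, which starts intestinal tumours, and a Cre recombinase under the Villin promoter, whose activity is that of intestinal epithelial cells. Both were kept in the same medium, with Noggin, R-spondin, EGF, basic FGF and a ROCK inhibitor, and the labels name no treatment and no oxygen level. The labels give neither age nor sex of the mice, and do not say whether the biological replicates came from separate mice or separate cultures. The spread behind each p-value is therefore that between libraries, and may be no more than technical.

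Glycolysis runs in a fixed order. Hexokinase traps glucose, phosphofructokinase commits it to breakdown, aldolase and triose phosphate isomerase split the sugar, and the later enzymes recover ATP before lactate dehydrogenase reduces pyruvate to lactate. When oxygen is present, prolyl hydroxylases mark the HIF alpha subunits and the Vhl protein directs their destruction. When oxygen is short, the alpha subunits persist, pair with Arnt and bind a short core motif near genes that include most glycolytic enzymes, Vegfa and Car9. Because this control acts on the protein, the transcript level of an alpha subunit is not a measure of HIF activity.

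Chuk had 28.9, 24.4 and 34.9 CPM in the knock-out libraries, against 101, 106 and 95.8 CPM in the wild-type libraries, with replicates 1, 2 and 3 in that order here and in the sentences that follow. It fell 3.42-fold (log2 fold change -1.77, SE 0.12, adjusted p = 8.6e-08; edgeR quasi-likelihood test, with Benjamini-Hochberg adjustment across the 13759 genes tested). Counts by gene do not show which of its exons remained. Library totals were 26785922 to 31875723 counts in knock-out cultures and 20749747 to 29752507 in the wild type. Knock-out replicate 2 stood apart: against knock-out replicates 1 and 3 its chi-square per degree of freedom was 36.4 and 37.0, while theirs with each other was 5.64. Of all genes tested, 27.0% fell and 30.4% rose in the knock-out at an adjusted p under 0.05. Of 8 epithelial markers, 4 fell and 3 rose in the knock-out, and Cdh1 did not pass the test. Their sum, 10107 to 11851 CPM in knock-out cultures and 7680 to 8322 CPM in the wild type, came mostly from the keratins Krt8, Krt18 and Krt19, which were the 3 that rose. Markers of the intestine were lower: Cdx2, a transcription factor of intestinal identity, had 20.6 ± 1.30 CPM in knock-out cultures and 193 ± 10.6 CPM in the wild type, and Vil1 had 231 ± 16.2 CPM in knock-out cultures and 428 ± 16.1 CPM in the wild type (SD, n = 3 each). Cdx1, a relative of Cdx2, had 0 counts in each knock-out library, against 197, 131 and 167 in the wild-type libraries, and Epcam, a general epithelial marker, fell 2.22-fold. General epithelial markers were thus present in both genotypes, and intestinal ones were lower or at 0 in the knock-out. Endothelial markers summed to 0.524 to 0.948 CPM in knock-out cultures and 10.2 to 14.5 CPM in the wild type, nearly all of the wild-type sum from Tek, with Kdr and Emcn at 0. Immune cell markers summed to 23.1 to 23.7 CPM in knock-out cultures and 3.22 to 6.98 CPM in the wild type, with Cd3e and Adgre1 at 0. All 3 immune markers tested rose, with Csf1r at 10.9 ± 0.361 CPM in knock-out cultures and 0.605 ± 0.724 CPM in the wild type, Cd68 at 11.9 ± 0.437 CPM in knock-out cultures and 3.71 ± 2.34 CPM in the wild type, and Ptprc under 1 CPM in every library. Fibroblast markers stayed at or under 0.885 CPM in sum, with Col3a1, Dcn, Lum and Pdgfrb at 0, and Col1a1, the 1 tested, rose. The share of mitochondrial counts was 2.15% to 3.46% in knock-out cultures and 6.18% to 7.58% in the wild type. Xist, an RNA made from inactive X chromosomes, had 0.0316 to 0.0969 CPM in knock-out cultures and 858 to 1483 CPM in the wild type. The Y-linked genes Eif2s3y, Ddx3y, Kdm5d and Uty summed to 172 to 208 CPM in knock-out cultures and 0 to 0.0335 CPM in the wild type. Sex and genotype therefore cannot be told apart in these libraries. The part of these differences in the results below was not tested.

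Most glycolysis genes fell in the knock-out, and 8 of the hypoxia genes tested fell. Of the 19 glycolysis genes, 13 fell (68.4%) and 3 rose past an adjusted p of 0.05, beside 27.0% of all genes tested that fell and 30.4% that rose. Gapdh, Pkm and Pfkfb4 did not pass. Among the 16 hypoxia genes tested, 8 fell (50.0%) and 1 rose. The median log2 fold change was -0.47 over the glycolysis genes and -0.19 over the hypoxia genes tested, beside 0.0022 over all genes. With single knock-out libraries left out, the hypoxia median was -0.20 without replicate 1, -0.37 without replicate 2 and -0.38 without replicate 3. With single wild-type libraries left out, it was -0.41 without replicate 1, -0.40 without replicate 2 and -0.15 without replicate 3. Knock-out and wild-type libraries did not overlap for 15 of the 19 glycolysis genes and 11 of the 16 hypoxia genes, beside 63.1% of all genes. Levels in these bulk samples do not tell fewer expressing cells from less RNA per cell.

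**Figure D1:**
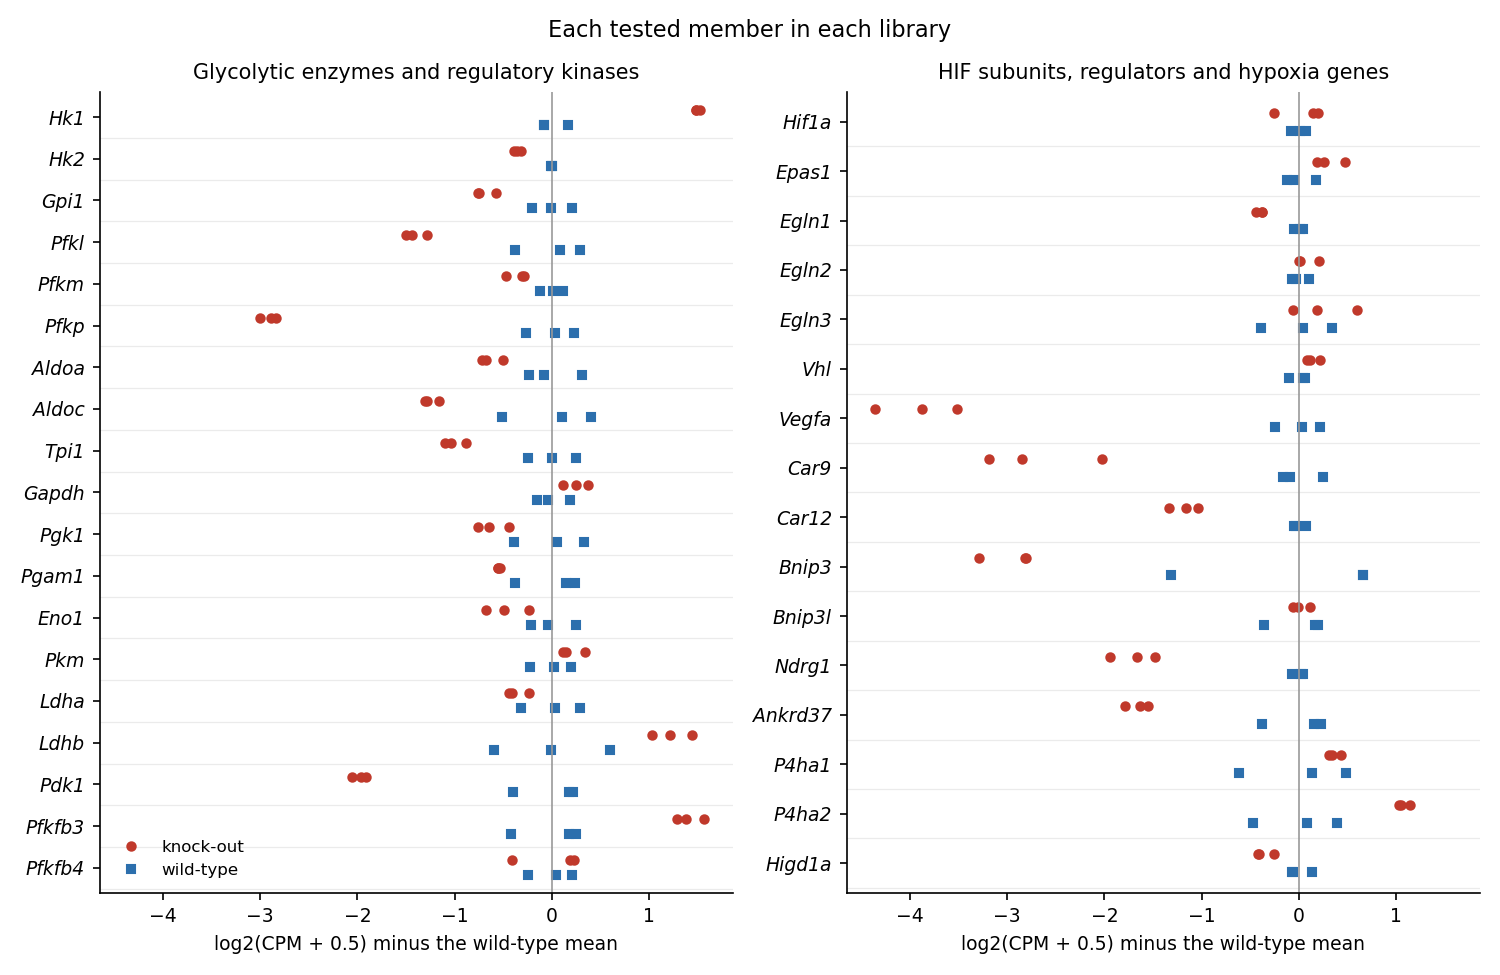
Each of the 35 tested genes in each library, as log2(CPM + 0.5) minus the wild-type mean on the horizontal axis, with knock-out libraries as circles above and wild-type libraries as squares below on each row. The longest shifts are those of Bnip3, Vegfa, Pfkp and Car9 to the left, and Hk1, Pfkfb3, Ldhb and P4ha2 lie to the right of the wild type.

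The falls and rises were set beside the sequence in front of the genes, since HIF binds its target genes at a core motif. The motif was searched as ACGTG or GCGTG on both strands, in the 250 bases before each RefSeq start (GRCm38.p6). It was found in front of 29 of the 33 member genes with a window (87.9%), beside 41.5% of the 27025 genes in the table. By window, it was in 79.2% of 48 member windows and 38.6% of 32851 windows. The stricter ACGTG was found for 18 of 33 genes (54.5%), beside 18.5% of all. CACGTG, which contains ACGTG on both strands and also is the binding word of other factors, was found for 5 of 33 genes (15.2%), beside 6.86%. The motif did not divide the genes by direction, as 17 of the 20 that fell held it, 4 of the 4 that rose, and 7 of the 8 that did not pass the test. A gene was counted if any of its windows held the motif, and Hk1, Vegfa, Aldoa and Pkm had no match in the first of their windows. Gpi1, Tpi1 and Car12 fell without a match in any window. A match is a word in a window and says nothing of binding. The genes compared were not matched to the members for base composition, expression or number of windows, and both words contain CG. The members were chosen as glycolysis and hypoxia genes, which include known HIF targets, and the windows do not depend on these libraries. Some member windows also lie partly or wholly in annotated exons. The part of these in the higher share of the members was not tested. Windows are printed below for 4 genes that fell and 2 that rose. They were picked by hand among windows with at most 30 annotated exon bases, and each holds a match. All run 5′ to 3′ on the gene's own strand, with each match to the motif on either strand in capitals. They are those of Pdk1 (chr2:71872974-71873223, plus strand), Pfkp (chr13:6648772-6649021, minus strand), Bnip3 (chr7:138909507-138909756, minus strand), Ankrd37 (chr8:45999851-46000100, minus strand), P4ha2 (chr11:54100674-54100923, plus strand) and, for Pfkfb3, the window of an alternative start (chr2:11502091-11502340, minus strand).
Pdk1: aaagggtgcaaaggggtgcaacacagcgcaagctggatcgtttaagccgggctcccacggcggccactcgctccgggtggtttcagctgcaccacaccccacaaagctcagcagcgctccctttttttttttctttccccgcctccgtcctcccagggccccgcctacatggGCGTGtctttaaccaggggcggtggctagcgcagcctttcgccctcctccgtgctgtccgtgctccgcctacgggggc
Pfkp: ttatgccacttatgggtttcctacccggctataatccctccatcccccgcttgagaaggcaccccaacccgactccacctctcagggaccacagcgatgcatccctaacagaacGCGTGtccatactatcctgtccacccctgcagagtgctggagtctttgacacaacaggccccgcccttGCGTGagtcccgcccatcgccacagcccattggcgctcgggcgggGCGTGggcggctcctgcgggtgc
Bnip3: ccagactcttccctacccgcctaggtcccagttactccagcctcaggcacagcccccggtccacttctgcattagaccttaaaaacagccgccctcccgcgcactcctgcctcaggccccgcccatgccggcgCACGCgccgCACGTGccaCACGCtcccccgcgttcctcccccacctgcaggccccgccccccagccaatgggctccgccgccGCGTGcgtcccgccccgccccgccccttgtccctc
Ankrd37: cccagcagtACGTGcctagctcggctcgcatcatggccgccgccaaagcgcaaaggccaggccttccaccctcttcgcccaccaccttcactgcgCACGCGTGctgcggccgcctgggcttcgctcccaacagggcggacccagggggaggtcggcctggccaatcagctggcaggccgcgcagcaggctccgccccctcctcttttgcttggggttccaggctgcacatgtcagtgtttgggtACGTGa
P4ha2: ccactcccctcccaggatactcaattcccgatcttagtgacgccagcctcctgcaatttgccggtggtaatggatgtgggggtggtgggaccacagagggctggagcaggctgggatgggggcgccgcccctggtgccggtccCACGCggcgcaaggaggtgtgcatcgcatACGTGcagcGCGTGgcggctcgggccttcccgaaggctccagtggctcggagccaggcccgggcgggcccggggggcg
Pfkfb3: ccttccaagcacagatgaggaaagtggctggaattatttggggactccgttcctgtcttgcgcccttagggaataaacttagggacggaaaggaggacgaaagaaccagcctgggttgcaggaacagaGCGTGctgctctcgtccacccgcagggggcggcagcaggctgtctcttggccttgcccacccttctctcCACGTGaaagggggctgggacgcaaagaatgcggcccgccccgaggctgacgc
Bnip3 holds 5 matches in this window and Ankrd37 holds 4, while Pdk1 holds 1. P4ha2, which rose, and Pfkp, which fell, hold 3 each. Pfkfb3 also holds 3 by this count, in which a CACGTG is counted once on each strand. That word occurs in the printed windows of Pfkfb3 and Bnip3. The other window of Pfkfb3, not printed, holds 1 match.

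The hexokinases, which open the pathway, moved in opposite directions. Hk1 (ENSMUSG00000037012, chromosome 10, 62268855 to 62379908, minus strand), the hexokinase found in most tissues, had 227, 220.5 and 221 CPM in knock-out libraries, against 74.2, 73.9 and 88.1 CPM in wild-type libraries. All knock-out libraries lay above all wild-type libraries, and Hk1 rose 2.83-fold (log2 fold change 1.5, SE 0.086, adjusted p = 2e-08). Hk2, the form known for its rise in tumours and under HIF, fell 1.28-fold, to 78.8 ± 1.75 CPM in the knock-out, against 101 ± 0.443 CPM in the wild type (SD, n = 3 each; log2 fold change -0.36, SE 0.074, adjusted p = 0.0013). Gpi1, which converts the phosphate of glucose to that of fructose, had 289, 327 and 289.8 CPM in the knock-out, against 487, 425 and 565 CPM in the wild type, and fell 1.63-fold (log2 fold change -0.71, SE 0.10, adjusted p = 7.9e-05). The libraries of the genotypes did not overlap for any of these 3 genes.

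The phosphofructokinases, which form the committing step, fell in all 3 forms and by unequal amounts. Pfkp (ENSMUSG00000021196, chromosome 13, 6579768 to 6648777, minus strand), the platelet-type form, had 19.3, 17.2 and 18.6 CPM in the knock-out, against 144, 117 and 165 CPM in the wild type. It fell 7.75-fold (log2 fold change -2.95, SE 0.13, adjusted p = 1.7e-09), the most of any glycolysis gene here. Pfkl, the liver-type form and the most abundant of the family per kilobase, had 131, 152 and 136 CPM in knock-out cultures and 394, 285 and 453 CPM in the wild type, and fell 2.70-fold (log2 fold change -1.43, SE 0.14, adjusted p = 2.6e-06). Pfkm, the muscle-type form, fell 1.29-fold, to 20.0 ± 1.41 CPM in the knock-out, against 25.7 ± 2.12 CPM in the wild type (SD, n = 3 each; log2 fold change -0.37, SE 0.12, adjusted p = 0.017). The Pfkm call was lost without knock-out replicate 1 (adjusted p = 0.079 by the same test) and without wild-type replicate 1 (adjusted p = 0.078). Of the Pfkp exon sequence, 5.10% of windows of 50 bases are shared with Pitrm1, a neighbour on the opposite strand, which had 12140 counts in knock-out cultures and 14733 in the wild type.

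Aldolase and triose phosphate isomerase, which cleave the sugar and interconvert the products, fell as well. Aldoa, the main aldolase of most tissues, had 640.1, 724 and 624 CPM in knock-out cultures, against 967, 872 and 1273 CPM in wild-type cultures, and fell 1.57-fold (log2 fold change -0.65, SE 0.12, adjusted p = 0.0007). Aldoc, the brain-type form, had 15.1, 13.7 and 13.6 CPM in knock-out cultures and 37.0, 23.9 and 45.5 CPM in the wild type, and fell 2.53-fold (log2 fold change -1.34, SE 0.20, adjusted p = 8.8e-05). Tpi1, the isomerase, had 319, 356 and 305 CPM in knock-out cultures and 658, 551 and 777 CPM in the wild type. It fell 2.03-fold (log2 fold change -1.02, SE 0.11, adjusted p = 9e-06). For none of these 3 genes did the genotypes overlap, and for each of them wild-type replicate 3 was the highest library.

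Of the 7 genes of the later steps, 4 fell, 1 rose and 2 did not pass the test, and some were counted at low levels. Over all genes tested, 27.0% fell and 30.4% rose. Gapdh, the dehydrogenase often used as a loading control, had 9.82, 10.8 and 11.9 CPM in knock-out cultures and 8.78, 8.04 and 10.4 CPM in the wild type. These ranges overlap, and its log2 fold change of 0.25 (SE 0.16) did not pass the test (adjusted p = 0.21 by edgeR). Pgk1, the kinase that makes the first ATP of the pathway, had 17.6, 20.2 and 16.1 CPM in knock-out cultures and 28.8, 21.1 and 35.0 CPM in the wild type, and fell 1.59-fold (log2 fold change -0.67, SE 0.17, adjusted p = 0.0047). Pgk1 lies on the X chromosome, for which the genotypes differ as given for Xist. Pgam1, the phosphoglycerate mutase, had 6.85, 6.97 and 6.85 CPM in knock-out cultures and 12.2, 7.80 and 11.4 CPM in the wild type. It fell 1.54-fold (log2 fold change -0.62, SE 0.19, adjusted p = 0.013), and it no longer passed when wild-type replicate 1 was left out (adjusted p = 0.072). Pgam1 lies 2.15 Mb from Chuk on chromosome 19, so an effect on neighbours of the edited gene cannot be told apart from one of the kinase.

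Eno1, the enolase of most tissues, fell 1.39-fold, to 222 ± 34.7 CPM in the knock-out, against 307 ± 51.1 CPM in the wild type (SD, n = 3 each; log2 fold change -0.47, SE 0.13, adjusted p = 0.0075). Pkm, the pyruvate kinase of tumours and most tissues, was among the most abundant genes of the set, with 1316 ± 115 CPM in knock-out cultures and 1150.4 ± 167 CPM in the wild type (SD, n = 3 each). It did not pass the test (log2 fold change 0.19, SE 0.11, adjusted p = 0.14 by edgeR), but did so, as higher in the knock-out, without wild-type replicate 3 (adjusted p = 0.034) and with no filter on low counts (adjusted p = 0.021). Another annotated gene, Gm49759, shares 12.1% of the windows of Pkm and had 3271 counts in knock-out cultures and 3332 in the wild type. Ldha, the lactate-forming subunit of lactate dehydrogenase, had 693, 798 and 706 CPM in knock-out cultures and 962, 753 and 1149 CPM in the wild type. Knock-out replicate 2 lay above wild-type replicate 2, so the genotypes overlapped, and the fall of 1.30-fold (log2 fold change -0.38, SE 0.13, adjusted p = 0.022) did not hold when certain single libraries were left out. Its adjusted p was 0.072 without knock-out replicate 1, 0.064 without knock-out replicate 3, 0.063 without wild-type replicate 1 and 0.11, at a log2 fold change of -0.23, without wild-type replicate 3. Ldhb, the subunit that favours the reverse reaction, had 4.30, 3.11 and 3.62 CPM in knock-out cultures and 0.670, 2.18 and 1.26 CPM in the wild type, and rose 2.87-fold (log2 fold change 1.52, SE 0.36, adjusted p = 0.0028). Its wild-type libraries held 20 to 45 counts each, and the pseudogene Gm5514, which shares part of its sequence, had none in any library.

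**Figure D2:**
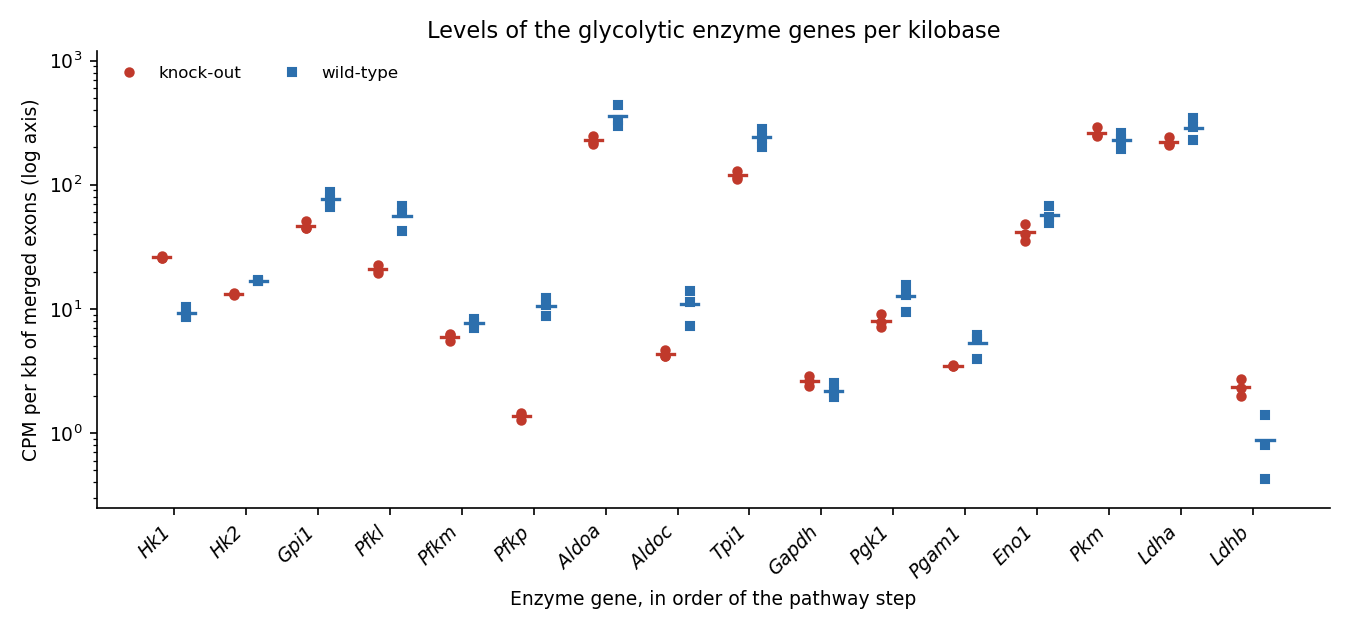
CPM per kilobase of merged exons (vertical log axis) of the 16 glycolytic enzyme genes in the order of their steps, with the 3 knock-out libraries as circles left of the 3 wild-type libraries as squares, and bars at the means. Aldoa, Tpi1, Pkm and Ldha lie above the other genes in both genotypes, whereas Gapdh, Pgk1 and Pgam1, whose steps lie between theirs, are far lower in every library.

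Levels along the pathway were set side by side per kilobase of merged exons, since plain counts rise with the length of a transcript. On this scale Aldoa averaged 228 CPM per kilobase in knock-out cultures and 356 in the wild type, and Pkm 263 in knock-out cultures and 230.0 in the wild type. Gapdh averaged 2.62 CPM per kilobase in knock-out cultures and 2.19 in the wild type. Pgk1 averaged 8.01 in knock-out cultures and 12.6 in the wild type, and Pgam1 3.48 in knock-out cultures and 5.27 in the wild type. These enzymes act in series with Aldoa and Pkm, and Gapdh and Pgk1 are as a rule among the abundant transcripts of a cell. Gapdh, Pgk1 and Pgam1 share sequence with annotated copies. For Gapdh, 25.1% of windows of 50 bases recur in another annotated gene, and 191 annotated pseudogenes align to it at 90% identity or more over at least 50% of their length. For Pgk1 the share was 53.9%, with the pseudogenes Pgk1-rs7 and Gm5537 as the main matches, and for Pgam1 it was 36.2%, all of it from pseudogenes. How reads with several matches were counted is unstated. The pseudogene copies of Gapdh held 4096 counts in knock-out cultures and 4334 in the wild type, more than the 967 counts of Gapdh itself in knock-out cultures and its 707 in the wild type. With the copies added, the log2 fold change of Gapdh was -0.18 (adjusted p = 0.19 by edgeR) in place of 0.25, and neither passed the test. The copies of Pgk1 and Pgam1 held 15 and 3 counts in knock-out cultures and 24 and 4 in the wild type. With so few counts, adding them moved neither call. Such an addition cannot restore reads that were counted for neither a gene nor its copies. Pkm had 25.8% and Eno1 26.0% of windows shared at far higher levels. These shares differ in kind, as windows found in a pseudogene made up 12.64% for Pkm and 18.95% for Eno1, beside 24.68% for Gapdh. Other genes were low with little shared sequence. Aldoc had 0.0% of windows shared, at 4.33 CPM per kilobase in knock-out cultures and 10.9 in the wild type. Pfkm had 8.83% shared, at 5.98 in knock-out cultures and 7.69 in the wild type. The part of shared sequence in the low levels was not tested. With the counting of such reads unstated, the values of Gapdh, Pgk1 and Pgam1 are uncertain as levels.

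**Figure D3:**
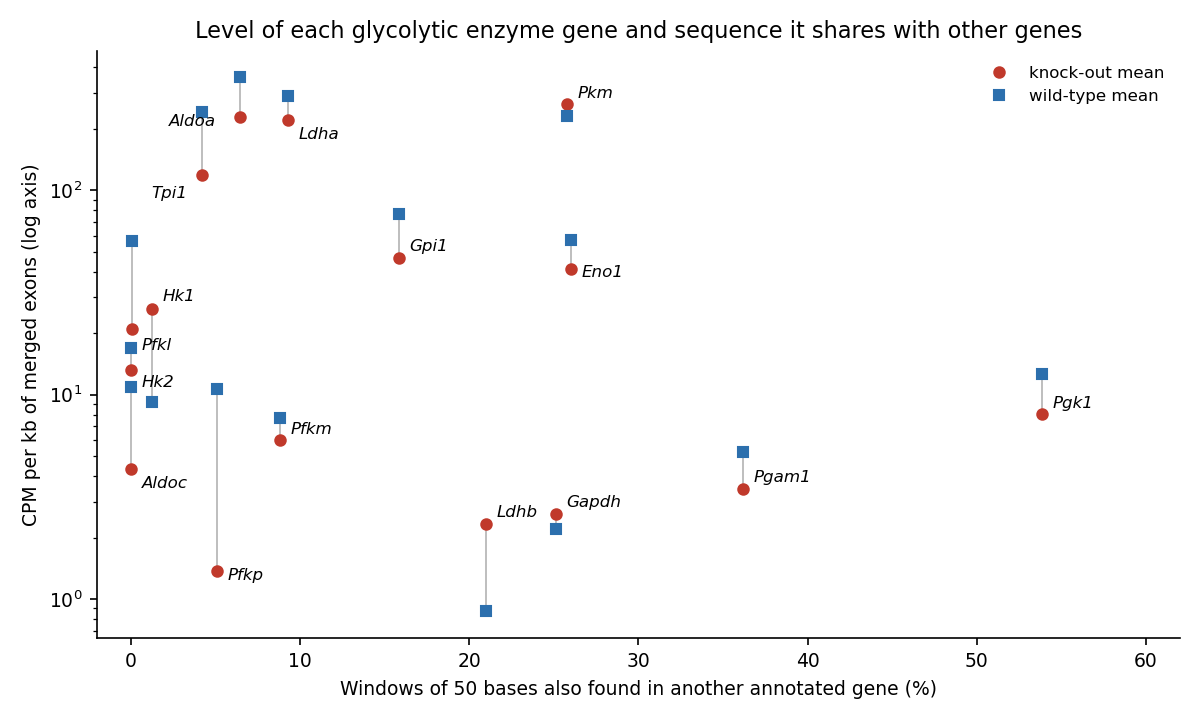
Share of 50-base windows of each glycolytic enzyme gene that recur in another annotated gene (horizontal axis) and its mean CPM per kilobase (vertical log axis), knock-out as circles and wild type as squares joined by a line. Pgk1 and Pgam1 lie at the right with low levels, Gapdh lies at 25.1% with levels of 2.62 in knock-out and 2.19 in wild-type cultures, and Pkm and Eno1 lie at 25.8% and 26.0% with higher levels.

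Where a step has more than 1 member gene, the mix of isozymes also differed. Hk1 made up 67.4%, 66.2% and 65.7% of the Hk1 and Hk2 counts per kilobase in the knock-out, against 33.9%, 33.9% and 38.0% in the wild type. Hk1 was thus the larger part in the knock-out and Hk2 in the wild type. The mean share was 66.4 ± 0.84% in knock-out cultures and 35.3 ± 2.39% in the wild type, a difference of 31.2 percentage points (exact permutation test, two-sided, p = 0.1, the smallest that 3 libraries against 3 can give). Pfkp made up 4.87 ± 0.61% of the phosphofructokinases in knock-out cultures and 14.3 ± 0.63% in the wild type, and Pfkm 21.1 ± 0.75% in knock-out cultures and 10.5 ± 1.62% in the wild type (SD, n = 3 each; exact permutation p = 0.1 for both). Pfkl had 74.0 ± 1.02% in the knock-out, against 75.3 ± 2.10% in the wild type (exact permutation p = 0.5). Aldoa made up 98.1 ± 0.20% of the aldolase members in knock-out cultures and 97.1 ± 0.48% in the wild type, and Ldha 98.9 ± 0.24% of the lactate dehydrogenase members in knock-out cultures and 99.7 ± 0.24% in the wild type (exact permutation p = 0.1 for both). The shares rest on merged exon lengths, and with plain counts the difference for Pfkl had the opposite sign, at 9.47 percentage points.

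**Figure D4:**
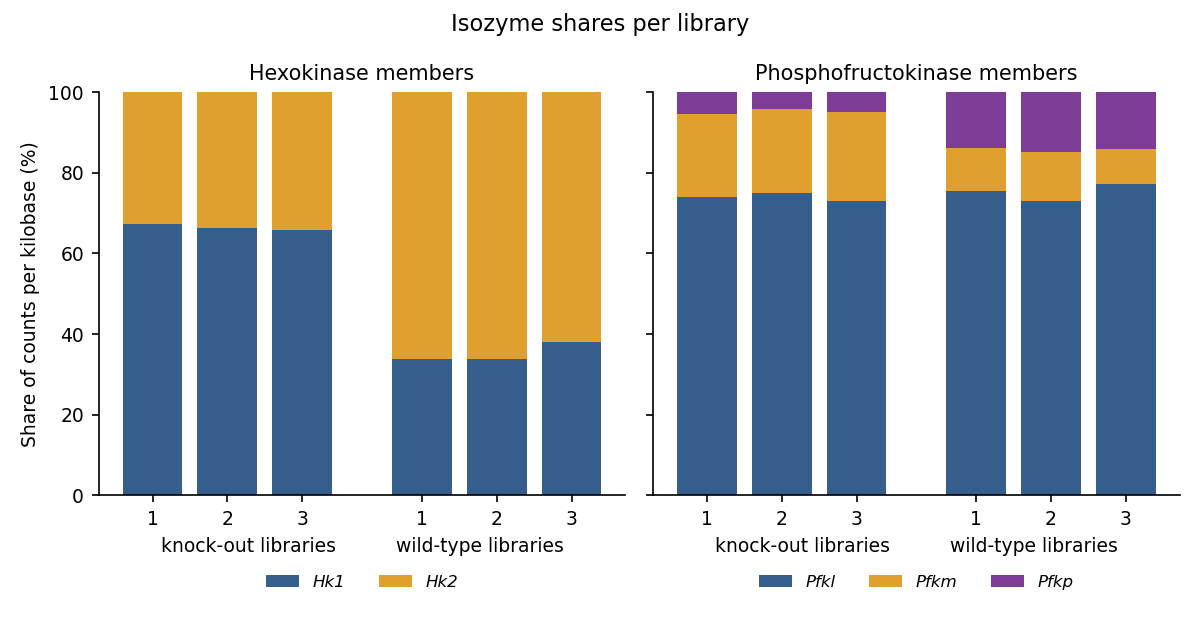
Share of each isozyme in the counts per kilobase of its members (vertical axis, percent) in each knock-out library at the left and each wild-type library at the right of each panel. Hk1 takes 65.7% to 67.4% in the knock-out libraries and 33.9% to 38.0% in the wild-type libraries, and the band of Pfkp is thinner in the knock-out.

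The regulatory kinases moved in opposite directions. Pdk1 (ENSMUSG00000006494, chromosome 2, 71873224 to 71903858, plus strand) phosphorylates pyruvate dehydrogenase, which keeps pyruvate from oxidation in the mitochondria, and is a HIF target. It had 30.7, 28.8 and 31.9 CPM in the knock-out, against 136, 92.0 and 141 CPM in the wild type, and fell 4.05-fold (log2 fold change -2.02, SE 0.15, adjusted p = 1.8e-07). Pfkfb3, which makes a sugar phosphate that activates phosphofructokinase, had 61.2, 50.4 and 53.9 CPM in the knock-out, against 23.0, 15.1 and 24.2 CPM in the wild type. Its knock-out libraries lay above all wild-type libraries, and it rose 2.63-fold (log2 fold change 1.39, SE 0.15, adjusted p = 7.2e-06). Pfkfb4, an isoform with the same product, had 7.16 ± 1.74 CPM in knock-out cultures and 7.05 ± 1.17 CPM in the wild type (SD, n = 3 each), with overlapping libraries (log2 fold change -0.0018, SE 0.22, adjusted p = 0.99 by edgeR).

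The transcripts of the HIF subunits and of most of their regulators did not pass the test. Hif1a had 158, 115 and 152 CPM in knock-out cultures and 138, 144 and 129 CPM in the wild type, and knock-out replicate 2 lay below all other libraries (log2 fold change 0.047, SE 0.11, adjusted p = 0.74 by edgeR). Without that library the log2 fold change was 0.15 and did not pass either. Epas1, which encodes HIF-2 alpha, had 30.6, 25.1 and 26.5 CPM in knock-out cultures and 24.8, 20.1 and 21.3 CPM in the wild type. These libraries did not overlap, and the log2 fold change of 0.31 (SE 0.13) narrowly missed the threshold (adjusted p = 0.053 by edgeR). Epas1 passed as higher without knock-out replicate 2 (adjusted p = 0.025), without wild-type replicate 1 (adjusted p = 0.033) and in a fit that left out chromosomes X, Y and 5 and the mitochondrion (adjusted p = 0.047). Vhl had 29.5, 30.3 and 32.4 CPM in knock-out cultures and 28.6, 25.8 and 29.1 CPM in the wild type, with a log2 fold change of 0.14 (SE 0.10, adjusted p = 0.28 by edgeR). Of the prolyl hydroxylases, Egln1, the main oxygen sensor for HIF in most cells, fell 1.32-fold, to 57.7 ± 1.44 CPM in the knock-out, against 76.4 ± 2.45 CPM in the wild type (SD, n = 3 each; log2 fold change -0.41, SE 0.079, adjusted p = 0.00086). Egln2 and Egln3 did not pass, with log2 fold changes of 0.075 (SE 0.091) and 0.23 (SE 0.19). Egln3 is itself induced by HIF in many cells.

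Among the genes that respond to hypoxia, Vegfa and Bnip3 fell the most of the whole set. Vegfa (ENSMUSG00000023951, chromosome 17, 46016993 to 46032369, minus strand), the vascular growth factor, had 2.15, 0.974 and 1.55 CPM in the knock-out, against 30.4, 25.0 and 34.5 CPM in the wild type. The knock-out libraries held 68, 26 and 48 counts of it, against 906, 516 and 929 in the wild type. Vegfa fell 18.9-fold (log2 fold change -4.24, SE 0.23, adjusted p = 1.1e-08), with every knock-out library below every wild-type library. Bnip3 (ENSMUSG00000078566, chromosome 7, 138890836 to 138909519, minus strand), a mitophagy receptor, had 0.158, 0.412 and 0.420 CPM in the knock-out, against 9.72, 2.08 and 9.66 CPM in the wild type. It fell 22.8-fold (log2 fold change -4.51, SE 0.66, adjusted p = 8.8e-05), on 29 counts in all in the knock-out. Wild-type replicate 2 lay well below the other wild-type libraries and above all knock-out libraries. For Bnip3, 47.2% of the windows of 50 bases recur in other annotated genes. Of these, Gm45507, annotated as antisense, and the pseudogene Gm16439 had no count in any library. Another, with 33.9% of the windows, has no entry in the count tables, so its counts are unknown. Bnip3l, the related receptor, had 84.9 ± 5.29 CPM in knock-out cultures and 85.1 ± 17.3 CPM in the wild type (SD, n = 3 each), and did not pass the test (log2 fold change -0.0095, SE 0.13, adjusted p = 0.96 by edgeR).

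The membrane carbonic anhydrases, which handle acid outside the cell, both fell. Car9 (ENSMUSG00000028463, chromosome 4, 43506966 to 43513729, plus strand), a widely used marker of hypoxic tumour cells, had 6.82, 5.28 and 12.5 CPM in the knock-out, against 46.4, 49.2 and 62.4 CPM in the wild type. It fell 6.37-fold (log2 fold change -2.67, SE 0.23, adjusted p = 8.9e-07), and the knock-out libraries differed among themselves by a factor of 2.36. Car12 had 18.6, 16.5 and 20.3 CPM in the knock-out, against 41.5, 40.8 and 44.6 CPM in the wild type, and fell 2.29-fold (log2 fold change -1.19, SE 0.11, adjusted p = 1.7e-06). Both genes lay lower in every knock-out library than in any wild-type library. Part of Car9, 4.72% of its windows, is shared with the antisense gene Gm12454, which had 228 counts in knock-out cultures and 199 in the wild type.

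Ndrg1, a stress-responsive gene linked to differentiation, had 13.8, 9.85 and 12.0 CPM in knock-out cultures and 40.6, 37.5 and 40.1 CPM in the wild type, and fell 3.30-fold (log2 fold change -1.72, SE 0.13, adjusted p = 2.5e-07). Ankrd37, a small ankyrin repeat gene induced by HIF-1, had 2.24, 2.55 and 2.74 CPM in knock-out cultures and 10.1, 6.78 and 10.6 CPM in the wild type, and fell 3.70-fold (log2 fold change -1.89, SE 0.23, adjusted p = 2.3e-05). It shares 16.5% of its windows with Lrp2bp on the opposite strand, which had 7 counts in knock-out cultures and 47 in the wild type. Higd1a, a mitochondrial inner membrane protein induced by hypoxia, fell 1.29-fold (log2 fold change -0.37, SE 0.12, adjusted p = 0.021). That call was lost without knock-out replicate 1 (adjusted p = 0.074) and without wild-type replicate 3 (adjusted p = 0.097). Gm47112, an antisense gene that shares 19.4% of its windows, had 5 counts in knock-out cultures and 5 in the wild type. Against this direction, P4ha2, a collagen prolyl hydroxylase subunit, had 44.3, 47.1 and 43.6 CPM in knock-out cultures and 22.3, 15.1 and 27.8 CPM in the wild type, and rose 2.05-fold (log2 fold change 1.03, SE 0.16, adjusted p = 0.00018). P4ha1, the other catalytic subunit, had a log2 fold change of 0.28 (SE 0.21, adjusted p = 0.27 by edgeR), which passed as higher without wild-type replicate 3 (adjusted p = 0.041). Among these 5 genes, the libraries of the genotypes overlapped for P4ha1.

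**Figure D5:**
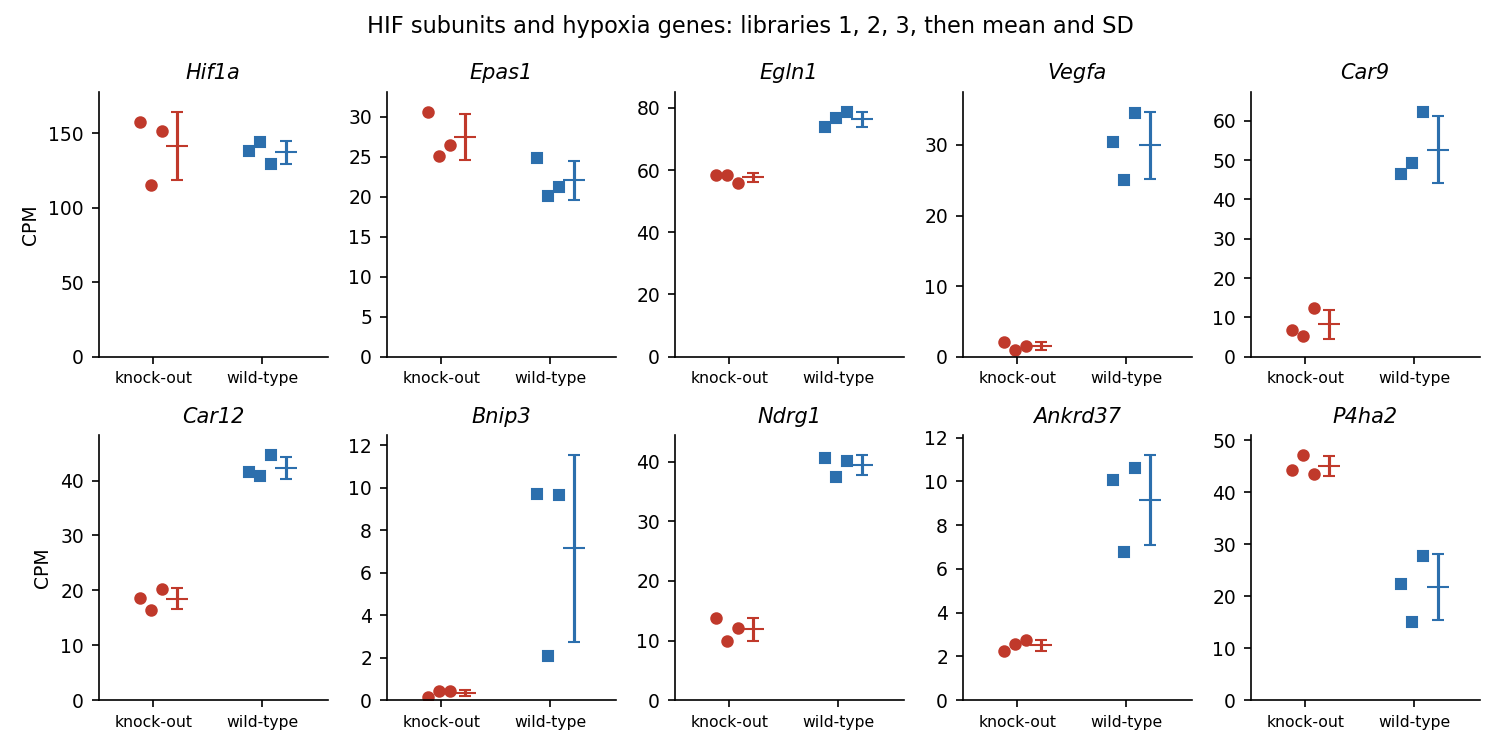
CPM (vertical axes, from 0) of the HIF alpha subunits, Egln1 and 7 hypoxia-responsive genes in the 3 knock-out libraries at the left and the 3 wild-type libraries at the right of each panel, followed by the mean and SD. Vegfa, Car9 and Bnip3 lie low in the knock-out, Hif1a overlaps between genotypes, and P4ha2 lies higher in the knock-out.

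The wild-type libraries stood in the same order for most of these genes. Wild-type replicate 2 was the lowest wild-type library for 17 of the 19 glycolysis genes (89.5%) and 12 of the 16 hypoxia genes tested (75.0%), beside 33.6% of all genes. Wild-type replicate 3 was the highest for 15 glycolysis genes (78.9%) and 11 hypoxia genes (68.8%), beside 36% of all genes. Relative to the wild-type mean, the median log2 level of the glycolysis genes was -0.49, -0.36 and -0.55 in the knock-out libraries, against 0.032, -0.25 and 0.22 in the wild-type libraries. For the hypoxia genes it was -0.19, -0.32 and -0.16 in the knock-out, against 0.040, -0.11 and 0.15 in the wild type. Wild-type replicate 2 was also the library with the fewest counts, 20749747, and the part of depth in this order was not tested. Without it, 13 glycolysis genes and 8 hypoxia genes fell, the same numbers as with it. Without knock-out replicate 2, the library that stood apart, those counts were also 13 and 8, and 2 hypoxia genes rose, P4ha2 and Epas1.

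Genes around the pathway were read from lists chosen by function, each set beside the 30.4% of all genes tested that rose and the 27.0% that fell. Of the glucose and lactate transporters, 4 of 8 were tested, 1 rose (25%) and 2 fell (50%). Slc16a3, the lactate exporter known as a HIF target, had 0.158, 0.187 and 0.258 CPM in the knock-out, against 15.5, 4.17 and 26.6 CPM in the wild type (log2 fold change -6.27, SE 0.82, adjusted p = 2.8e-05 by edgeR). Slc16a1, a carrier of lactate and pyruvate, fell 1.5-fold (log2 fold change -0.59, SE 0.069, adjusted p = 1.4e-05), and Slc2a1, the main glucose transporter, rose 1.25-fold (log2 fold change 0.32, SE 0.097, adjusted p = 0.014). Among 9 other glycolytic isozymes tested of 15, 2 rose, Eno2 and Bpgm, and 3 fell, with Hkdc1 and Eno3 among them. Hkdc1, a further hexokinase, had 0.0316, 0.150 and 0 CPM in knock-out cultures and 2.24, 3.05 and 2.23 CPM in the wild type.

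For pyruvate dehydrogenase, its kinases and phosphatases, and the mitochondrial pyruvate carrier, 9 of 11 genes tested fell (81.8%). Pdk2 and Pdp1 did not pass. Pdha1 and Pdk3, which fell, lie on the X chromosome, for which the genotypes differ as given for Xist. Pdp2, a phosphatase that activates the complex, fell 2.06-fold, Mpc2, a subunit of the pyruvate carrier, fell 2.08-fold, and Pdhb, a subunit of the complex itself, fell 1.73-fold (adjusted p = 1.5e-06, 1.6e-06 and 3.9e-06). In the pentose phosphate pathway, 2 of 7 genes rose (28.6%, near the 30.4% of all genes), G6pdx by 1.34-fold and Tkt by 1.27-fold, and 1 fell (14.3%), Rpia by 2.59-fold (adjusted p = 0.00035, 0.0075 and 3.3e-08). G6pdx is the entry enzyme of that pathway and lies on the X chromosome. Of 4 gluconeogenesis genes tested, Fbp2, Pck2 and Pcx fell.

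The other HIF pathway genes gave 2 falls in 8 tested (25%, near the 27.0% of all genes) and 1 rise (12.5%, beside 30.4%). Of these genes, Hif1an, which encodes the asparaginyl hydroxylase that restrains HIF, and Eloc, a partner of Vhl, fell, and Arnt2, a relative of Arnt, rose (adjusted p = 0.0498 by edgeR). Hif1an fell 1.43-fold (log2 fold change -0.52, SE 0.091, adjusted p = 0.00039), and it lies 0.455 Mb from Chuk. Arnt, the partner of the alpha subunits, had a log2 fold change of 0.022 (SE 0.088, adjusted p = 0.85 by edgeR). In a further list of 20 genes that hypoxia induces in other settings, 15 were tested, of which 9 rose (60%) and 6 fell (40%). Plod2, a collagen lysyl hydroxylase, had 66.9, 55.7 and 66.4 CPM in knock-out cultures and 4.56, 5.09 and 4.94 CPM in the wild type, and Pdgfb, a growth factor, had 36.8, 32.1 and 37.2 CPM in knock-out cultures and 3.65, 2.23 and 2.79 CPM in the wild type. Both rose without overlap (adjusted p = 3.6e-10 for Plod2 and 4.1e-09 for Pdgfb). Tfrc, the transferrin receptor, fell 3.01-fold (log2 fold change -1.59, SE 0.086, adjusted p = 1.2e-08).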

How the data were processed

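The authors deposited raw, unscaled counts for each Ensembl gene. Libraries were stranded and polyA-selected, per the labels' protocols, and STAR and GRCm38 are named in the submitters' processing notes. Not given in the sources used here are the counting program, its strand setting and its treatment of reads with several matches.

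Libraries were grouped by genotype and replicate number as the labels give them, and no pair agreed within sampling noise. Symbols, exon lengths and coordinates come from GENCODE (GRCm38). Counts were tested in R 4.3.3 by the edgeR 4.0.16 quasi-likelihood test, with TMM scaling, the filterByExpr filter (minimum count 10, minimum total 15), genotype as the only term and Benjamini-Hochberg adjustment over the 13759 genes left, at a threshold of 0.05. The standard error is the size of the log2 fold change over the root of the test's F statistic. CPM are counts relative to TMM-scaled library size, and 1 CPM equals 20.6 to 31.7 counts. Shared sequence was counted in windows of 50 bases over annotated transcripts. The test was checked on simulated counts. Alternatives were 3 scalings, 2 filters, DESeq2 1.42.0, limma 3.58.1 voom, a replicate term, fewer genes, pseudogene counts added, a legacy edgeR fit chosen after seeing the data, and each library left out.

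The members and lists were chosen with earlier results of these data known. Values in every library are given for Chuk, for members past the threshold with a log2 fold change of at least 0.58 in size, and for Hif1a, Epas1, Vhl, Gapdh, Pgk1, Ldha and Ldhb. From each further list, up to 3 genes with the smallest adjusted p are named, and more where a count is 5 or fewer. Tfrc and Arnt were named after their values were seen, and Pdha1 and Pdk3 for their place on the X chromosome. Some genes that this rule would name are not reported here.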

Additional observations from a re-analysis of the deposited data

How the results depend on the processing

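The counts of glycolysis genes were the same under most settings. Higher calls numbered 3 or 4 and lower calls 10 to 13 with each library left out in turn, where hypoxia genes gave 1 or 2 higher and 7 or 8 lower calls. All genes called numbered 7896, and 7077 to 8899 with a library left out. Hypoxia genes called higher numbered 2 in place of 1 with the replicate block and 2 without chromosomes X, Y and 5 and the mitochondrion, each time with Epas1 added. The replicate numbers did not pair the libraries (correlations of same-numbered deviations 0.11, -0.11 and -0.19), and the block gave 7432 calls in all, 13 lower and 3 higher glycolysis genes, and 8 lower hypoxia genes. Epas1 had an adjusted p of 0.046 by edgeR with that block.

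Signs changed for values that no setting called, near 0 except for Gapdh at 0.25. Pfkfb4 had a log2 fold change of 0.013 by DESeq2, 0.0058 without those chromosomes and 0.016 in the legacy edgeR fit, and -0.13 to 0.20 with a library left out. Hif1a had -0.011 with upper-quartile scaling and -0.036 to 0.15 with a library left out. Bnip3l had 0.0018 by limma voom, 0.0099 with the replicate block and -0.16 to 0.086 with a library left out. Egln2 had -0.021 to 0.13 with a library left out. Gapdh had -0.18 with pseudogene copies added. With plain counts in place of counts per kilobase, the shares differed by 9.47 percentage points for Pfkl, 6.40 for Pfkm, -15.9 for Pfkp and -0.35 for Ldha. With a library left out, the share differences were 30.5 to 32.5 for Hk1, -2.39 to -0.30 for Pfkl, 9.81 to 11.4 for Pfkm, -9.67 to -9.03 for Pfkp, 0.87 to 1.32 for Aldoa and -0.87 to -0.61 for Ldha. The median log2 fold change of the hypoxia genes, between 2 distant middle values, was -0.41 to -0.15 with a library left out. The cause of the changes with another scaling or fit, or with a library left out, was not tested. Upper-quartile scaling moved the median of all genes to -0.054.

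Depth limits Bnip3, Ldhb and Vegfa in their lower genotype, and Adm in both. Replicates of unstated origin, sex, the mitochondrial share and the treatment of near-identical copies limit the comparison as given beside the results.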
